A study of Mus musculus with 6 samples.

Results

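Collagens are the genes studied here, taken as every protein-coding gene of the mouse annotation (GENCODE M21, mm10) whose symbol is Col, a number, the letter a and a number. The symbol rule gave 44 of 21951 protein-coding genes, on 15 chromosomes, of which 11 encode chains of fibrillar collagens and 33 encode other collagens. Their chromatin was read from ATAC-seq, in which the transposase Tn5 cuts accessible DNA. A site was counted to a gene when the highest point of its peak, the summit, lay in the gene body or within 10 kb of it. Sites within 1 kb of a start site of the gene were called promoter sites and all others were called other sites. Distances are from a window centre to the nearest annotated start site of the gene, which need not be its outermost one.

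The study isolated preadipocytes, the fibroblast-like precursors of fat cells, from the inguinal white fat of mice and grew them on plates coated with collagen. Mice were 8 to 12 weeks old, and the labels give C57BL/6 as the strain of all 6 samples, while the study's materials name the DKO stock B6.Cg-Hmgn2tm1.1Mbus Hmgn1tm1Mbus/Mmjax. They were either wild type (WT) or Hmgn1-/- and Hmgn2-/- (DKO), lacking both nucleosome binding proteins HMGN1 and HMGN2 in every tissue. Cells were taken at day 0, before differentiation medium was added, with 3 libraries per genotype. The labels call the samples triplicates without saying whether each came from a separate animal or culture, so p-values measure only the spread between these libraries. The cells were then counted and replated, and the methods do not say whether the later plates were coated.

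Collagens are secreted proteins built from 3 chains wound into a triple helix. Fibrillar collagens pack into the cables that carry tension in connective tissue, type IV collagen forms the sheet of basement membranes, and other families link, anchor or decorate these structures. Each adipocyte is wrapped in a basement membrane, and preadipocytes and fibroblasts are the main makers of fibrillar collagen in fat. Accessible chromatin at a gene is not its transcription, and no RNA was measured in these files.

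All 6 peak lists reached the authors' limit of 300000 peaks, less a blacklist filter, and held between 299433 and 299620 summits, so numbers of peaks could not be compared between libraries. The local background that occurred most often, a measure of depth, lay between 2.41 and 2.58 cut sites in 5 libraries and was 2.05 in DKO replicate 3. WT replicate 3 had the highest median fold enrichment (5.87, against 4.35 to 5.07 in the others). At Hmgn2 the 2 windows near its start site had fold enrichments between 5.79 and 9.45 in WT and were missing from the 3 DKO lists, while the promoter of Hmgn1 was listed in all 6 libraries. Promoter windows were found for 8 of 9 markers of preadipocytes and adipose progenitors and for 1 of 5 markers of mature adipocytes. They were also found for 4 of 4 endothelial, 3 of 4 immune, 2 of 4 epithelial and 3 of 3 smooth muscle and pericyte markers, and 7 of these 21 windows were listed in part of the libraries only. An accessible promoter does not name a cell type, and the part of other cells in the results was not tested.

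The lists held between 1209 and 1274 collagen summits in WT and between 1220 and 1248 in DKO, about 0.404% to 0.425% of each list. Of these, 105 to 110 in WT and 106 to 114 in DKO were promoter sites. The ranges overlapped. The median fold enrichment of collagen summits, the ratio of cut sites at a summit to the local background, was 4.66, 4.05 and 5.48 in WT and 4.27, 4.53 and 4.04 in DKO. Here and in what follows, the 3 values of a genotype stand in the order of replicates 1, 2 and 3. Ranked by −log10 p within each list, with rank 1 the smallest p, the median collagen summit stood at 51.8%, 52.8% and 49.6% of the list in WT and at 51.8%, 50.7% and 51.8% in DKO. At promoter sites the classes differed in rank in WT, while in DKO their ranks overlapped. The median summit at a fibrillar promoter stood at 33.4%, 44.8% and 42.7% of the list in WT and at 52.4%, 45.3% and 46.0% in DKO, so that each DKO value was a later rank than each WT value. At the promoters of the other collagen genes it stood at 57.0%, 57.8% and 55.7% in WT and at 48.9%, 56.7% and 44.2% in DKO, which overlapped. Outside promoters the medians lay between 51.0% and 54.3% for fibrillar genes and between 49.96% and 53.7% for the others. These ranks were not tested, and each library contributes its own summits, 33 to 41 at fibrillar promoters, rather than a common set of windows.

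For comparison between libraries, summits were gathered into windows that reach 250 bp to either side of a centre. Windows were kept where at least 2 libraries had a summit at a q under 0.01, and 771 of all 179249 windows belonged to collagen genes. Introns held 593 of them (76.9%), 66 lay upstream, 77 downstream, 18 in coding exons and 17 in noncoding parts of exons. Promoter windows numbered 57 (18 fibrillar, 39 not), and 714 were other sites (197 fibrillar, 517 not). The median collagen gene was 114 kb long with 14 windows, against 17.4 kb and 5 windows over all protein-coding genes. Per 100 kb of gene and flanks the fibrillar genes had a median of 20.6 windows, the others 10.2 and all protein-coding genes 11.2. Col1a1, which encodes the main chain of type I collagen, was the densest at 43.5, and Col4a5 was the sparsest at 1.71.

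Which collagen sites differed between WT and DKO was tested in each window with limma on quantile-normalized log2 fold enrichment. Of the 771 windows, 0 passed an adjusted p of 0.05 lower in DKO and 0 passed higher, where 0.0363% and 0.0234% of all windows did. The smallest adjusted p was 0.145, in a window whose 3 WT values were all filled in, and among windows listed in all 6 libraries it was 0.166. At an unadjusted p under 0.05, 25 collagen windows were lower in DKO (3.24%, against 6.10% of all windows) and 49 were higher (6.36%, against 5.68%). In 36 of these 74 windows at least 1 library had no listed summit and was given the lowest value of its list, and among the 38 listed in all 6 libraries 8 were lower and 30 higher. These were 1.77% and 6.62% of the 453 collagen windows listed in all 6 libraries, against 5.45% and 5.17% of all such windows. When only such windows were scaled and fitted, 18 were lower (3.97%, against 6.98%) and 30 higher (6.62%, against 6.08%). All DKO values lay under all WT values in 34 windows (4.41%, against 7.67% of all windows) and over them in 78 (10.1%, against 8.76%). Counts without overlap, here and below, include windows with filled values. Among the 453 listed in all 6 libraries, 15 lay lower (3.31%, against 7.95% of all such windows) and 56 higher (12.4%, against 9.86%). When limma was run without its mean-variance trend, 6 windows were called lower and 9 higher, at backgrounds of 1.17% and 1.14%. All 15 were windows listed in every library of 1 genotype and in none of the other, so each rests on a group of filled values and is no test of a difference.

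The balance of lower and higher windows depended on the scaling. Without scaling between libraries the median change of all windows moved from 0.01 to −0.14 on the log2 scale, and 76 collagen windows then lay lower without overlap and 28 higher. Backgrounds moved alike, to 13.6% and 3.33%. The collagen share stayed below that of all windows for lower sites (9.86%) and near it for higher sites (3.63%).

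**Figure D1:**
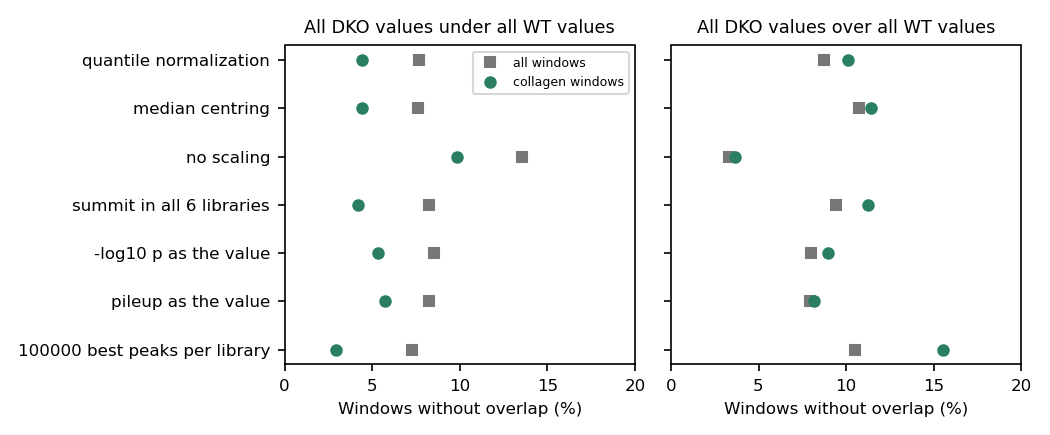
Share of windows whose DKO and WT values did not overlap, in percent, for collagen windows (circles) and all windows (squares), with DKO lower on the left and higher on the right, under 7 ways of scaling, filtering or measuring. With quantile normalization 4.41% of collagen windows were lower and 10.1% higher, and without scaling the shares were 9.86% and 3.63%.

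Fibrillar genes had a median log2 change (DKO minus WT) of 0.14 over promoter windows and 0.11 over other windows, while their promoter summits stood at later ranks in DKO. For the other collagen genes these medians were 0.06 and 0.01. All promoter windows of the series had a median of 0.08 and all other windows one of −0.01. The medians of all 11 fibrillar genes were above 0, from 0.04 in Col1a2 to 0.19 in Col5a1, against 15 of 33 non-fibrillar genes, whose medians ran from −0.34 in Col19a1 to 0.35 in Col9a3. Without scaling the fibrillar medians were −0.02 and −0.03, above the median of all windows at that scaling, and with summit pileup as the value they were −0.09 and 0.01.

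**Figure D2:**
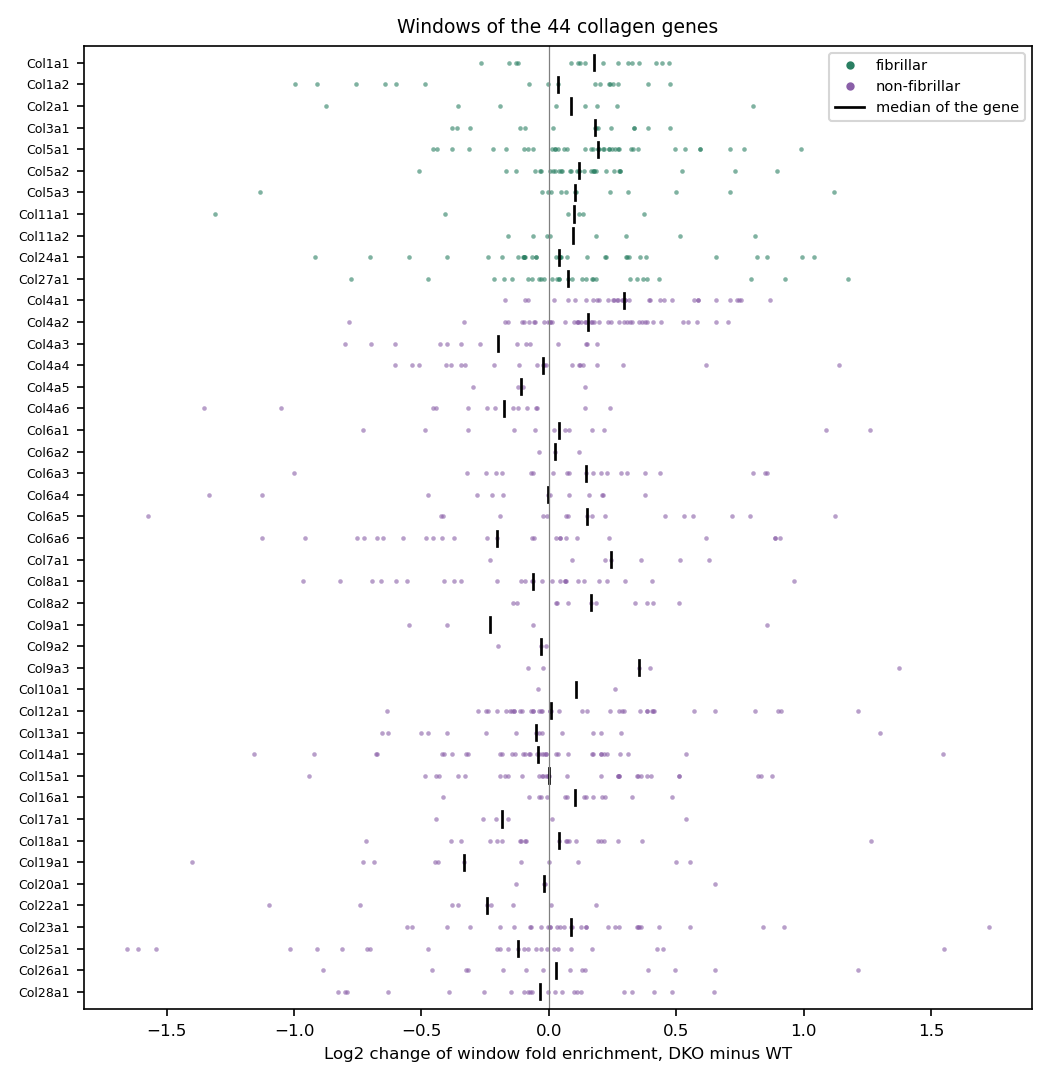
Log2 change of fold enrichment (DKO minus WT, quantile-normalized) of every window of the 44 collagen genes, 1 dot per window and 1 row per gene, with fibrillar genes on top and the median of each gene as a black bar. Bars of the fibrillar genes lie between 0.04 and 0.19, those of the others between −0.34 and 0.35, and single windows scatter on both sides of 0 in most genes.

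A promoter window was present for 34 of the 44 genes (77.3%, against 67.0% of protein-coding genes) and for all 11 fibrillar genes. Col4a1 shared its window with Col4a2 and Col4a3 shared one with Col4a4, which left 32 distinct windows. No promoter window was found for Col9a1, Col9a3, Col20a1 and Col22a1 (fibril-associated chains), Col8a2 (a short-chain collagen), Col13a1 and Col17a1 (membrane-spanning collagens), Col4a6, Col26a1 or Col28a1. By fold enrichment over local background, collagen promoters stood low for their kind. Among the best promoter windows of 14582 protein-coding genes, ordered by mean fold enrichment, the median fibrillar gene stood at percentile 21.1 and the median non-fibrillar gene at 20.6. Only Col5a2 (53.9) and Col6a2 (74.9) were above the middle. Summit pileup can give another order. Col5a3, at percentile 26.8, had pileups of 80 to 149 over the 6 libraries, against 72 to 129 at Col6a2. Percentiles by pileup were not computed.

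Type I collagen is the main tensile fibril, made of 2 chains from Col1a1 and 1 from Col1a2. At the Col1a1 promoter (chr11:94935938-94936438, centred 36 bp upstream of an annotated start site) fold enrichment was 7.01, 6.74 and 5.69 in WT and 4.89, 5.79 and 4.78 in DKO. WT replicate 3 lay under DKO replicate 2, so the groups overlapped, and the log2 change was −0.16 ± 0.22 (SE, unadjusted p = 0.49 by limma, adjusted p = 0.807). The Col1a2 promoter (chr6:4505343-4505843, centred 100 bp downstream of an annotated start site) had 7.84, 6.13 and 9.98 in WT and 9.98, 7.59 and 7.50 in DKO. Its log2 change of 0.27 ± 0.16 also came with overlapping groups (unadjusted p = 0.123 by limma). With summit pileup as the value the Col1a1 promoter had a log2 change of −0.42 (unadjusted p = 0.021 by limma), and with −log10 p one of −0.55 (unadjusted p = 0.048), so its call at an unadjusted p depends on the measure.

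Type III collagen, encoded by Col3a1, is the finer fibril of soft and healing tissue. Its promoter window (chr1:45311411-45311911) was weak, at 3.85, 4.24 and 5.35 in WT and 4.86, 5.53 and 3.83 in DKO (log2 change 0.24 ± 0.24, unadjusted p = 0.341 by limma). It stood at ranks between 120289 and 176385 of the lists. A start site of another gene lay 12 bp from its centre. The Col3a1 stretch before the start site is AT-rich, with 37.5% G and C, and is shown because it holds a TATA box, which 13.2% of collagen promoters held against 12.4% of all. It lies at chr1:45311338-45311537 on the plus strand (RefSeq, GRCm38.p6), 5′ to 3′, with the letters TATAAA and those of TEAD (GGAATG, here on the opposite strand) in capitals.
Col3a1 promoter: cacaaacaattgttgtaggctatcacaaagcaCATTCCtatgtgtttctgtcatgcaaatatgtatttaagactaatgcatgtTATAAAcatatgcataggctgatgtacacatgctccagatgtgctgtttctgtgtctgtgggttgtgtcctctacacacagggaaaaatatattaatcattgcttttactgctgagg

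Col5a1, Col5a2 and Col5a3 encode type V collagen, which starts fibrils and sets their width. Col5a2 had the fibrillar promoter with the highest fold enrichment (chr1:45502889-45503389), with 13.6, 12.6 and 14.7 in WT and 12.4, 10.3 and 9.78 in DKO. Every DKO value before scaling was under every WT value there, but the groups overlapped after scaling and the log2 change was −0.17 ± 0.12 (unadjusted p = 0.197 by limma). Other measures gave a larger change, −0.57 with summit pileup (unadjusted p = 0.000735, adjusted p = 0.142 by limma) and −0.64 with −log10 p (unadjusted p = 0.00249, adjusted p = 0.216). Col5a1 (chr2:27885749-27886249) had 4.04, 5.40 and 5.01 in WT and 5.42, 5.79 and 4.90 in DKO. At Col5a3 (chr9:20814938-20815438) the values were 5.30, 6.499 and 8.14 in WT and 7.39, 6.92 and 7.14 in DKO. Both had positive log2 changes (0.33 ± 0.23 and 0.31 ± 0.18) with overlapping groups and unadjusted p of 0.189 and 0.111 by limma.

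Col11a1 and Col11a2 encode type XI collagen and Col2a1 type II, the fibrils of cartilage. The Col11a1 promoter (chr3:114030203-114030703) had 7.74, 5.99 and 7.48 in WT and 8.73, 5.61 and 6.45 in DKO. Col11a2 (chr17:34040022-34040522) was not listed in WT replicate 1 and had 4.295 and 4.49 in the other WT libraries and 3.08, 3.77 and 3.63 in DKO. Col2a1 (chr15:98004041-98004541) was the weakest of all collagen promoters, at percentile 5.47. It was not listed in WT replicate 1 and DKO replicate 2 and ran from 2.95 to 4.37 elsewhere. The fits filled these gaps with the lowest value of the list, and the log2 changes of the 3 genes were 0.13, 0.30 and 0.14 with unadjusted p between 0.502 and 0.781 by limma. The direction at Col11a2 and Col2a1 was not stable. Without WT replicate 1, in which neither was listed, the log2 changes were −0.18 and −0.24. Col2a1 was also below 0 without DKO replicate 1 (−0.08) or DKO replicate 3 (−0.09), and Col11a2 with −log10 p (−0.10) or summit pileup (−0.07) as the value.

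Col24a1 and Col27a1 encode the minor fibrillar collagens XXIV and XXVII of skeletal tissue. Col24a1 (chr3:145292282-145292782) had 5.02, 3.91 and 3.96 in WT and 5.19, 5.76 and 4.22 in DKO. Col27a1 (chr4:63215103-63215603) had 6.94, 6.11 and 8.88 in WT and 6.84, 7.45 and 5.44 in DKO. Their log2 changes were 0.38 ± 0.25 and 0.04 ± 0.16, and the groups overlapped in both. Of the 18 fibrillar promoter windows 0 lay lower or higher without overlap after scaling, where 4.35% and 13.1% of all promoter windows did, shares too small to read much from 18 windows.

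Among non-fibrillar promoters, Col6a2 had the highest fold enrichment. It encodes a chain of type VI collagen, which forms beaded filaments around cells and is abundant in fat. Its window (chr10:76623136-76623636) had 15.2, 14.6 and 19.8 in WT and 15.1, 18.0 and 15.6 in DKO, at ranks between 10373 and 19539, with overlapping groups (log2 change 0.12 ± 0.10, unadjusted p = 0.279 by limma). Its summit pileup of 72 to 129 was under that of the Col12a1 promoter in every library, at 99 to 166. The Col6a2 stretch at chr10:76623631-76623830 on the minus strand (RefSeq, GRCm38.p6) has 61% G and C. It is shown as the promoter of the family with the highest fold enrichment, beside the AT-rich one of Col3a1. Capitals mark the GC box (GGGCGG, here on the opposite strand) and the C/EBP letters TTGCNNAA (here on the opposite strand too). Of the 250 bases upstream of collagen genes in RefSeq, 57.9% held a GC box, against 32.7% of all promoters of the same length. Within 100 bp of the centre of accessible promoter windows the order was the other way, with 29.8% of collagen ones and 34.6% of all.
Col6a2 promoter: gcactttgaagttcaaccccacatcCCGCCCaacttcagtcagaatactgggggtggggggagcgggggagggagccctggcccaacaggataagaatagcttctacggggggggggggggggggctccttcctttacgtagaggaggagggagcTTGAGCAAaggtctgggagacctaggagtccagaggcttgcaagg

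Col6a1, the partner of Col6a2, had 6.61, 7.32 and 7.95 in WT and 6.46, 5.51 and 6.498 in DKO (chr10:76725903-76726403). Here too DKO lay under WT only before scaling, and the log2 change was −0.06 ± 0.19 (unadjusted p = 0.771 by limma). Col6a5 and Col6a6 encode alternative chains of type VI. Their promoters ran from 7.14 to 11.6 and from 5.69 to 7.88 in WT, and from 6.56 to 8.19 and from 5.57 to 7.72 in DKO. Col6a3 lay between 4.99 and 8.27 over the 6 libraries, and Col6a4 was listed in 4 of them at 3.13 to 4.19.

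Col12a1, Col14a1 and Col16a1 encode fibril-associated collagens, which coat fibrils and link them to the matrix. Col12a1 (chr9:79718535-79719035) had 10.4, 10.9 and 9.04 in WT and 11.4, 10.6 and 10.6 in DKO (log2 change 0.29 ± 0.18, unadjusted p = 0.136 by limma). Col16a1 (chr4:130047634-130048134) had 9.06, 6.47 and 9.74 in WT and 9.47, 9.35 and 8.66 in DKO. After scaling all 3 DKO values of Col16a1 lay over all WT values, with a log2 change of 0.33 ± 0.13, the smallest p of any collagen promoter (unadjusted p = 0.0349, adjusted p = 0.378 by limma). Without scaling the change was 0.14 (unadjusted p = 0.481 by limma), and under median centring it was 0.31 (unadjusted p = 0.0559). A start site of another gene lay 110 bp from the centre of that window. Col14a1 was weak, at 3.67 to 4.67 in WT and 3.44 to 5.18 in DKO.

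Col23a1, a collagen that spans the cell membrane, had 9.67, 12.2 and 13.4 in WT and 11.4, 9.38 and 10.3 in DKO at its promoter (chr11:51289425-51289925). Col8a1, a short-chain collagen of vessel walls, had 8.83, 12.03 and 11.2 in WT and 8.80, 10.99 and 9.58 in DKO (chr16:57755360-57755860). Col18a1, a basement membrane collagen that carries endostatin, had 10.9, 9.48 and 13.9 in WT and 8.72, 9.01 and 10.5 in DKO (chr10:77113781-77114281). The log2 changes of these 3 promoters lay between −0.09 and 0.06 with overlapping groups. Col4a5, a type IV chain, had 8.18, 5.12 and 7.93 in WT and 8.39, 7.37 and 4.92 in DKO (chrX:141475145-141475645, a window that also lies within 10 kb of Col4a6).

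**Figure D3:**
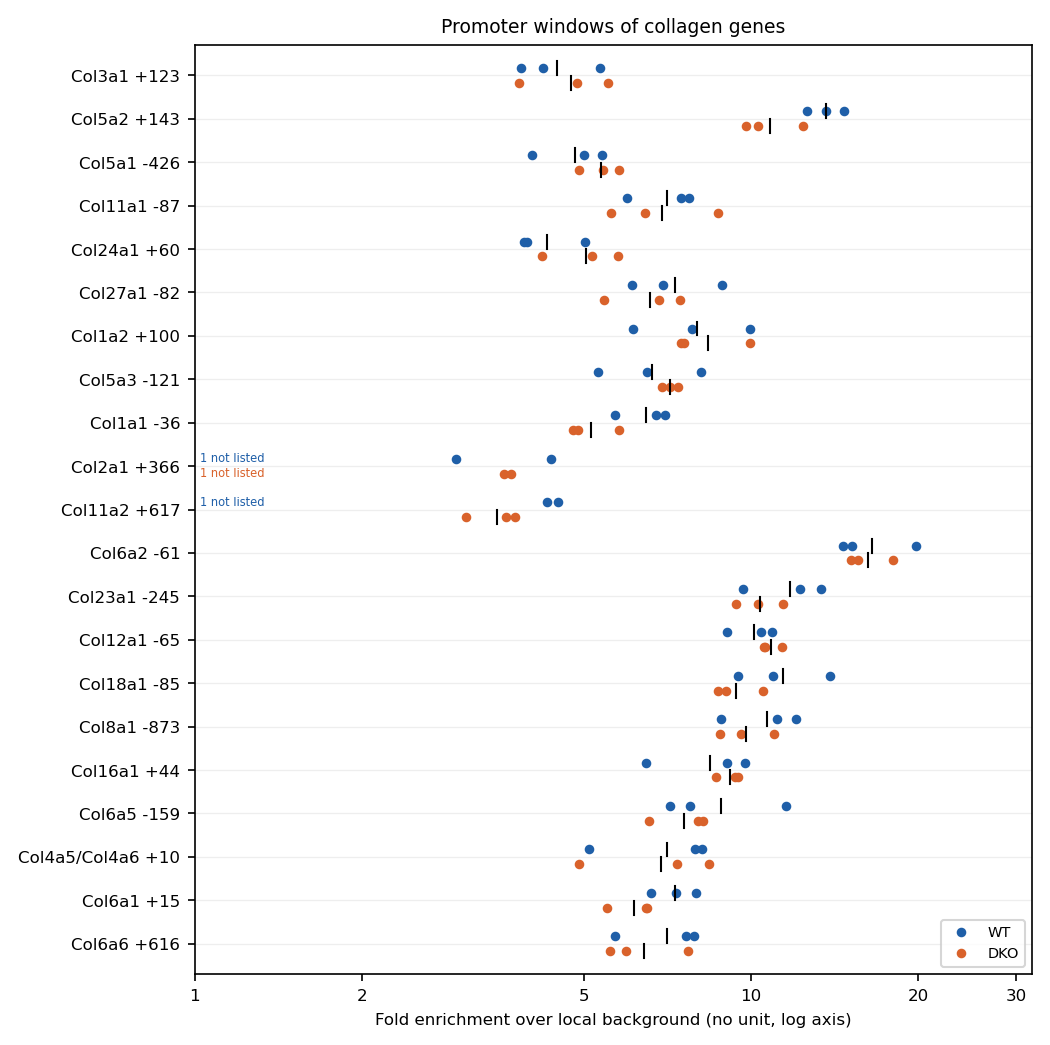
Fold enrichment (log axis, no unit, as deposited and not scaled between libraries) of the best promoter window of the 11 fibrillar genes and of the 10 highest non-fibrillar ones, 1 dot per library, WT in blue above DKO in orange, with a bar at the mean where all 3 libraries are listed. Names give the gene and the distance of the window centre from the start site in bp. WT and DKO dots interleave in most rows.

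Over the 32 distinct promoter windows, 23 had a positive log2 change and 2 an unadjusted p under 0.05 by limma, both higher in DKO. Of all promoter windows of the series, best of a gene or not, 63.9% were positive. At that threshold 8.16% of them were higher and 2.60% lower. The 2 collagen windows under it were that of Col16a1 and the one shared by Col4a1 and Col4a2 (chr8:11312588-11313088), described with its locus. One of the 57 promoter windows lay lower without overlap (1.75%) and 3 lay higher (5.26%), where 4.35% and 13.1% of all promoter windows of the series did.

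Sites away from promoters held most of the collagen windows. In the 197 other windows of fibrillar genes, 7 lay lower in DKO without overlap (3.55%) and 22 higher (11.2%), and in the 517 of non-fibrillar genes 26 lay lower (5.03%) and 53 higher (10.3%). Over all windows outside promoters of the series these shares were 8.35% and 7.86%. With the Col4a1 and Col4a2 windows left out, the non-fibrillar shares were 5.86% and 7.66%.

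The fibrillar site with the smallest p lay in an intron of Col5a1, 8.65 kb downstream of its start site (chr2:27894828-27895328). Fold enrichment was 6.07, 5.57 and 7.79 in WT and 7.64, 9.50 and 8.34 in DKO. After scaling all DKO values lay over all WT values, and the log2 change was 0.59 ± 0.15 (unadjusted p = 0.00296, adjusted p = 0.166 by limma). The centre of this site with 100 bp on either side, chr2:27894978-27895178 on the plus strand of mm10, is shown as the one fibrillar site among the 5 higher windows with the smallest p. Capitals mark RUNX letters (TGTGGT) and a CCAAT box on the opposite strand.
Col5a1 intron: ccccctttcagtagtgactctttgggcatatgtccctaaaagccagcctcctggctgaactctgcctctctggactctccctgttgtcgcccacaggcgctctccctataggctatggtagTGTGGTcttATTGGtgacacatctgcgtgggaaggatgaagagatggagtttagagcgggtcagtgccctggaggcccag

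Col2a1 showed the opposite direction in an intron 11.6 kb from its start site (chr15:97992836-97993336), the strongest site of the gene. There the values were 19.1, 16.2 and 21.3 in WT and 13.8, 14.7 and 11.5 in DKO. All DKO values lay under all WT values both before and after scaling, and the log2 change was −0.36 ± 0.10 (unadjusted p = 0.00422, adjusted p = 0.178 by limma). The strong intronic site thus stood beside the weakest promoter of the family. Downstream of Col11a1, 199 kb from the start site (chr3:114229474-114229974), a site showed the same order, with 11.1, 9.11 and 13.2 in WT and 8.39, 7.94 and 5.90 in DKO. Its log2 change was −0.41 ± 0.14 (unadjusted p = 0.0156, adjusted p = 0.277 by limma). The centres of these cartilage collagen sites, at chr15:97992986-97993186 and chr3:114229624-114229824 on the plus strand of mm10, are shown as the 2 named fibrillar sites that lay lower in DKO without overlap. Capitals mark a GC box on the opposite strand and 2 CCAAT boxes in Col2a1, and an AP-1 site (TGANTCA) in Col11a1.
Col2a1 intron: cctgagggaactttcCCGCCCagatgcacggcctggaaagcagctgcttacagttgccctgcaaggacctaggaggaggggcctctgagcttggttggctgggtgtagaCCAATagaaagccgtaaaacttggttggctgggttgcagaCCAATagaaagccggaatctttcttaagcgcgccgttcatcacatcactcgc
Col11a1 downstream: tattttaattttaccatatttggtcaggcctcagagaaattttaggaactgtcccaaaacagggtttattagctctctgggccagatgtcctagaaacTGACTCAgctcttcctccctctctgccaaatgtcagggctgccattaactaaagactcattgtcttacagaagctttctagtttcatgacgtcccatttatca

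Upstream of Col1a1, 7998 bp before the start site (chr11:94927976-94928476), the strongest site of the gene outside its promoter had 8.17, 6.81 and 8.37 in WT and 7.94, 9.66 and 7.997 in DKO. Groups overlapped before scaling and not after it, and the log2 change was 0.32 ± 0.14 (unadjusted p = 0.045, adjusted p = 0.41 by limma). Its centre (chr11:94928126-94928326, plus strand, mm10) is shown because it holds a CCAAT box, TEAD letters and an AP-1 site close together, all in capitals, the first 2 on the opposite strand. AP-1 letters were found within 100 bp of the centre in 33.3% of collagen windows outside promoters and in 33.7% of all such windows, and TEAD letters in 19.2% and 17.5%.
Col1a1 upstream: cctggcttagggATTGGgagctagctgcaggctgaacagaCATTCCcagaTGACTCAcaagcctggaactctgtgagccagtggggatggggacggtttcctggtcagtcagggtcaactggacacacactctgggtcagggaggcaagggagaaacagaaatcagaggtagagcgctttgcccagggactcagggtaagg

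At the strongest sites outside promoters of 7 other fibrillar genes the groups overlapped after scaling. The intron of Col24a1 had 19.4, 14.8 and 20.9 in WT and 15.6, 16.4 and 16.1 in DKO (chr3:145420437-145420937), and that of Col27a1 had 16.2, 18.0 and 18.4 in WT and 14.7, 18.9 and 15.3 in DKO (chr4:63323377-63323877). Downstream of Col3a1 (chr1:45355943-45356443) the values were 14.0, 15.1 and 16.1 in WT and 15.9, 16.7 and 13.6 in DKO. All 3 had overlapping groups and log2 changes between −0.05 and 0.18. Sites in Col5a1 (chr2:27936555-27937055), Col5a2 (chr1:45380189-45380689) and Col5a3 (chr9:20794168-20794668), and one downstream of Col1a2 (chr6:4544538-4545038), had unadjusted p between 0.14 and 0.664 by limma. At Col11a2 the strongest site outside the promoter, upstream of the gene, had a larger change. It lay 8 bp from the start site of another gene, so it counts as a promoter of that gene. Its values were 4.72, 7.56 and 7.16 in WT and 7.93, 8.03 and 8.16 in DKO, with overlapping groups after scaling and a log2 change of 0.52 ± 0.21 (unadjusted p = 0.0367, adjusted p = 0.385 by limma).

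Some collagen windows were listed in all libraries of 1 genotype and in none of the other. There were 6 in WT only (0.778%, against 1.23% of all windows) and 9 in DKO only (1.17%, against 1.14%). All were weak, with fold enrichment between 2.63 and 6.55 where listed, and absence from a list means only that the site fell under its limit. Missing values were filled with the lowest fold enrichment of the list (1.49 to 1.57), so the log2 change of such a window says how far the listed summits stood above that floor and gives no fold change.

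The window that came first in order of p was of this kind, and since its WT values were filled in, its p is no test of a difference. It lay in an intron of Col23a1, 77.6 kb from the start site (chr11:51367304-51367804), with 3.91, 4.25 and 6.55 in DKO and no listed summit in WT. Col25a1, another membrane-spanning collagen, had windows of both kinds. One, 194 kb from the start site (chr3:130374584-130375084), had 4.19, 5.67 and 3.28 in DKO and nothing listed in WT. Another, 256 kb from it (chr3:130436714-130437214), had 4.37, 6.30 and 4.83 in WT and nothing listed in DKO. Col25a1 also held 6 of the 34 collagen windows that lay lower in DKO without overlap, more than any other collagen gene, and 1 of the higher ones. The 6 were 24.0% of its 25 windows, against 7.67% of all windows. One of these 6 (chr3:130168276-130168776) had 7.30, 4.84 and 7.63 in WT and was listed in DKO only in replicate 3, at 2.95.

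Col6a5 had a window in WT only 31.7 kb from its start site (chr9:105928729-105929229), with 5.55, 3.70 and 5.58. The centres of the 2 windows of each kind with the smallest p are shown, with motif letters in capitals, to set sites listed in DKO only beside sites listed in WT only. From the plus strand of mm10 they are chr11:51367454-51367654 in Col23a1 and chr3:130374734-130374934 in Col25a1, listed in DKO only, and chr3:130436864-130437064 in Col25a1 and chr9:105928879-105929079 in Col6a5, listed in WT only. The first holds a TATA box (opposite strand) and the second an AP-1 site. In the other Col25a1 window TEAD letters overlap a CCAAT box and RUNX letters follow, and that of Col6a5 has 2 sets of C/EBP letters and 1 of RUNX. The DKO pair shared none of the 7 motifs searched, and RUNX letters, found in both WT windows, were present in 22.3% of collagen windows outside promoters and 20.3% of all such windows.
Col23a1, DKO only: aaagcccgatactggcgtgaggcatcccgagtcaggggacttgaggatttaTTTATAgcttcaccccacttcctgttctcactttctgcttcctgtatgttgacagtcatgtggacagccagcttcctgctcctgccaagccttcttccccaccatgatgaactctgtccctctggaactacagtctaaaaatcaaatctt
Col25a1, DKO only: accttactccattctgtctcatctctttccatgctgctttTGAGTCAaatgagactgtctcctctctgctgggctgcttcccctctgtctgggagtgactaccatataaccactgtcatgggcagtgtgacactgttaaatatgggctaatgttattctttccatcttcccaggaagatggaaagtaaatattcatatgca
Col25a1, WT only: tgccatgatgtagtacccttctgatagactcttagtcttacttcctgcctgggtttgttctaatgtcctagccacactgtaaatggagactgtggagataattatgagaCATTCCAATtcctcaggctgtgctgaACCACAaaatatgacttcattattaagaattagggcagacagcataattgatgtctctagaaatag
Col6a5, WT only: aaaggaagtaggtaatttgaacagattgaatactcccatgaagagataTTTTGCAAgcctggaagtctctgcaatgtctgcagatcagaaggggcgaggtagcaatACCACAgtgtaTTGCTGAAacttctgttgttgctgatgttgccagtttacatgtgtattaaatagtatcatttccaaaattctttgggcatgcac

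Further windows in WT only lay in introns of Col6a4 (chr9:106080539-106081039, 3.70 to 4.40), Col4a6 (chrX:141304223-141304723, 3.13 to 5.58) and Col14a1 (chr15:55357319-55357819, 3.42 to 3.82). In DKO only they lay upstream of Col9a3 (chr2:180595405-180595905, 3.22 to 4.52), downstream of Col6a1 (chr10:76707434-76707934, 3.28 to 3.92) and in an intron of Col12a1 (chr9:79661789-79662289, 2.95 to 3.84). Col14a1 also had a window in the other direction (chr15:55381398-55381898), with 5.57, 5.41 and 5.16 in DKO and 3.27 in WT replicate 1 only. Single genes such as Col14a1 and Col25a1 therefore held windows on both sides.

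**Figure D4:**
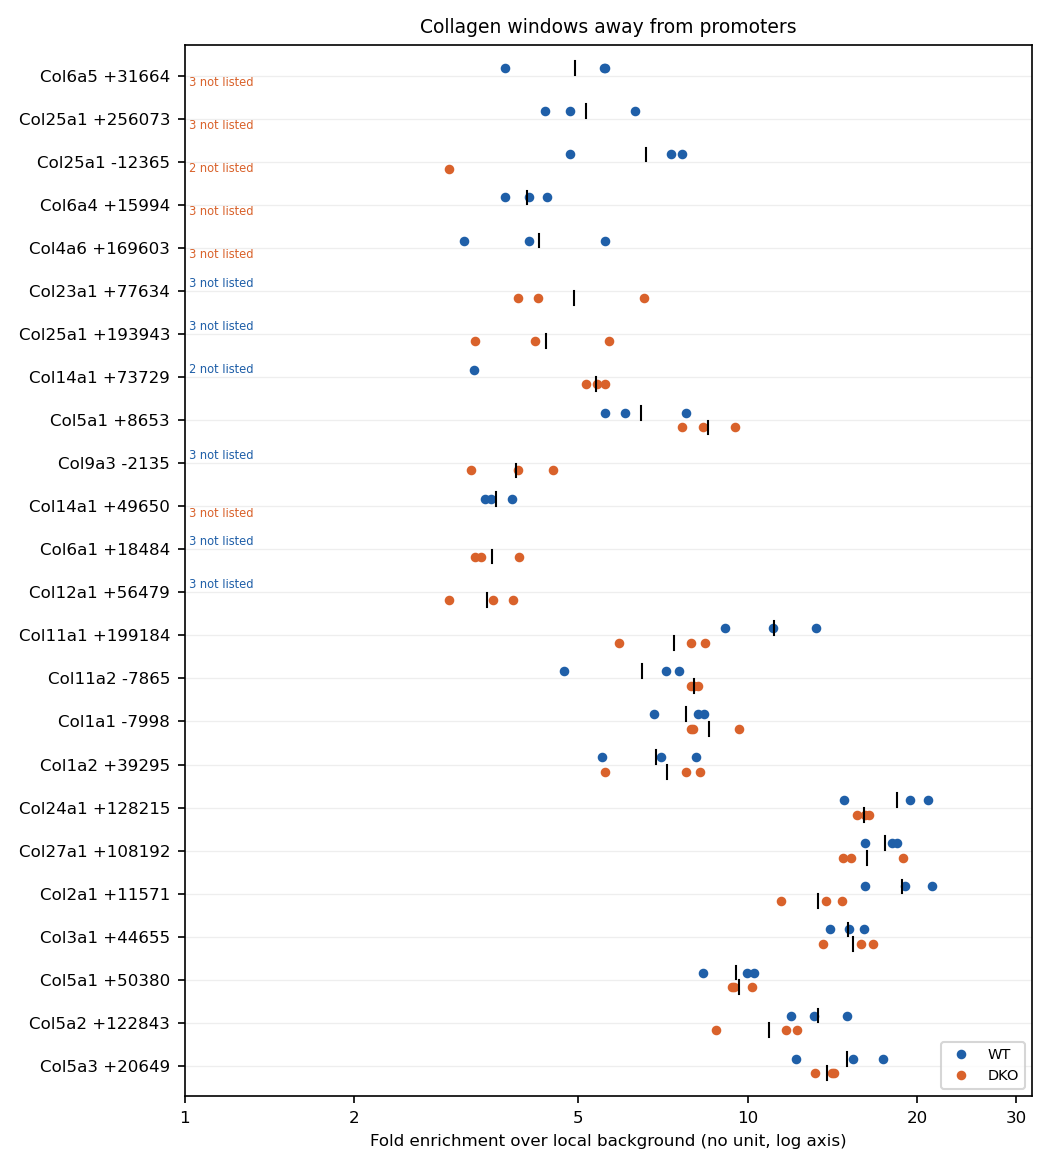
Fold enrichment (log axis, no unit, as deposited and not scaled between libraries) of 24 collagen windows away from promoters, 1 dot per library, WT in blue above DKO in orange, with a bar at the mean where all 3 libraries are listed and the number of libraries without a listed summit at the left edge. The upper 13 rows hold windows with the smallest p or listed in 1 genotype only, most of them weak. The lower 11 rows hold the strongest site of each fibrillar gene outside its promoter, up to 21.3.

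The strongest collagen site of the series, singled out after its values were seen, lay in an intron of Col23a1, 249.9 kb from the start site (chr11:51539566-51540066). It had 26.1, 24.7 and 34.2 in WT and 29.1, 27.1 and 28.5 in DKO, with a log2 change of 0.09 (unadjusted p = 0.347 by limma). One gene thus held both the strongest site, alike in both genotypes, and a weak window listed in DKO only.

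Type IV collagen is the network of basement membranes, and Col4a1 and Col4a2 encode the 2 chains found in nearly all of them. These genes lie head to head on chromosome 8, with start sites at 11312826 (minus strand) and 11312805 (plus strand), so that their first exons overlap by 22 bp. Their locus was singled out after its values were seen. Of its 75 windows, 62 had a positive log2 change, the median was 0.25, and 20 lay higher in DKO without overlap (26.7%, against 8.76% of all windows) and 0 lower. At an unadjusted p under 0.05, 8 windows were higher (10.7%, against 5.68% of all windows) and 0 lower (against 6.10%), and 0 passed the adjusted threshold. The 136 windows within 500 kb on either side had a median of 0.08, with 17 higher (12.5%) and 4 lower (2.94%) without overlap. On the whole of chromosome 8 these shares were 8.92% and 7.44%.

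The shared promoter window had 3.04, 4.41 and 5.77 in WT and 5.25, 6.18 and 5.78 in DKO. WT replicate 3 lay above DKO replicate 1, so the groups overlapped before scaling, and after scaling the groups did not overlap (log2 change 0.66 ± 0.28, unadjusted p = 0.0424, adjusted p = 0.403 by limma). Within Col4a1 the smallest p was found in an intron 39018 bp from the start site (chr8:11273558-11274058), with 7.64, 7.29 and 8.06 in WT and 9.68, 8.75 and 8.25 in DKO. All DKO values there lay over all WT values before scaling too, and the log2 change was 0.40 ± 0.14 (unadjusted p = 0.0201, adjusted p = 0.308 by limma). Within Col4a2 it lay in an intron 87627 bp from the start site (chr8:11400182-11400682), with 4.13, 4.78 and 5.55 in WT and 6.33, 6.61 and 5.46 in DKO, values that overlapped before scaling only (log2 change 0.52 ± 0.20, unadjusted p = 0.0258, adjusted p = 0.34 by limma). A coding exon of Col4a1 held a window listed in DKO only, at 2.63, 2.82 and 2.63 (chr8:11226885-11227385). The centre of the Col4a1 intron site, chr8:11273708-11273908 on the plus strand of mm10, is shown as the site of the locus with the smallest p, with an AP-1 site, a GC box and a CCAAT box (opposite strand) in capitals.
Col4a1 intron: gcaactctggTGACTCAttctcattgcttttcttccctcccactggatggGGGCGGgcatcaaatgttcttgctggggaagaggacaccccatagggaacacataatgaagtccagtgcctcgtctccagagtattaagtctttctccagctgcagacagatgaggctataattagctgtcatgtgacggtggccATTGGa

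**Figure D5:**
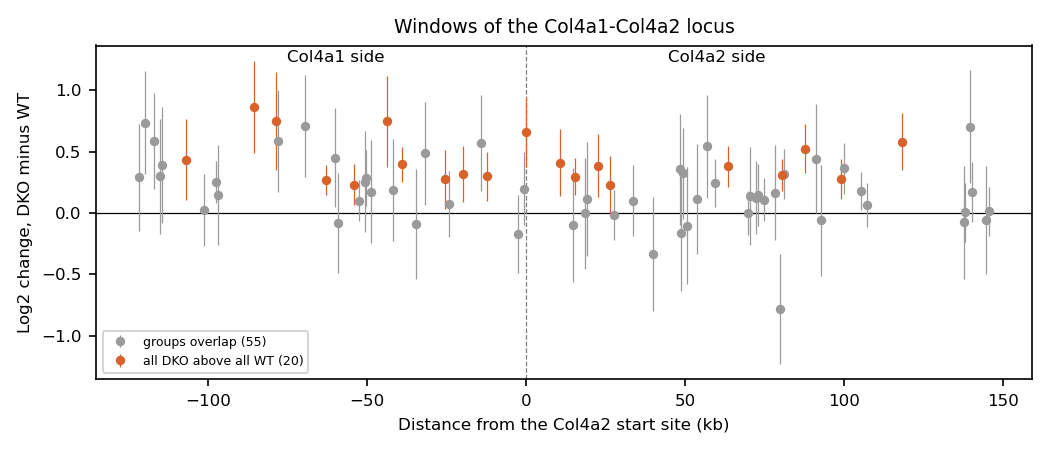
Log2 change of fold enrichment (DKO minus WT) of the 75 windows of the Col4a1 and Col4a2 locus against distance from the Col4a2 start site in kb, negative on the Col4a1 side, with bars of 1 SE. The 20 windows in which all DKO values lay over all WT values (orange) are spread over both genes, and most of the others (grey) lie above 0 as well.

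The pattern at this locus depended on the scaling. Without scaling, 3 of the 75 windows lay higher without overlap (4.00%, against 3.33% of all windows) and 5 lower (6.67%, against 13.6%), and the median was 0.06, against −0.14 over all windows. Under median centring, −log10 p, summit pileup and the 100000 best peaks, between 13 and 19 lay higher and between 0 and 1 lower, out of 75 windows or, for the best peaks, 26. Leaving out 1 library at a time gave 20 to 32 higher (26.7% to 42.7%, against 12.2% to 14.6% of all windows). It gave 0 to 2 lower (0% to 2.67%, against 11.3% to 13.7%). The 32 came without WT replicate 2, when 14.2% of all windows lay higher without overlap. The 2 lower ones came without WT replicate 3. The other type IV genes had lower medians. Their median log2 changes were −0.20 in Col4a3, −0.02 in Col4a4, −0.11 in Col4a5 and −0.18 in Col4a6, and of their 49 windows 2 lay higher and 2 lower without overlap (4.08% each, against 8.76% and 7.67% of all windows). The difference from Col4a1 and Col4a2 was not tested. Without the Col4a1 and Col4a2 locus, 58 of 696 collagen windows (8.33%) lay higher and 34 (4.89%) lower.

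Endothelial cells, which make much basement membrane, were read at the promoters of 4 markers. Cdh5 was listed in DKO only, at 3.91, 7.09 and 4.26. Tie1 was listed in DKO replicates 1 and 3 only, and Kdr was listed in all 6 libraries at overlapping values. Pecam1 showed the opposite order, with 16.9, 12.2 and 17.2 in WT and 11.1, 11.8 and 10.3 in DKO (log2 change −0.31, unadjusted p = 0.0186, adjusted p = 0.297 by limma). The summed fold enrichment of the 4 markers ran from 17.9 to 25.4 in WT and from 23.9 to 25.0 in DKO, with 2 markers listed in each WT library and 3 or 4 in each DKO library. Of 3 smooth muscle and pericyte markers, Rgs5 was listed in all WT libraries at 4.84 to 6.75 and in DKO only in replicate 2, at 3.12. Acta2 and Myh11 were listed in all 6 libraries with overlapping groups and log2 changes of 0.16 and −0.11 (unadjusted p = 0.247 and 0.285 by limma). The part of such cells in the values of the locus was not tested.

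The other non-fibrillar families had medians near 0. They were 0.03 over the 91 windows of type VI, −0.03 over the 126 of fibril-associated collagens, 0.03 over the 40 of short-chain collagens, −0.03 over the 78 of membrane-spanning collagens and 0.02 over the 54 of Col15a1 and Col18a1. The 7 windows of Col7a1, the anchoring fibril of the skin, had a median of 0.25. Of these 1 lay lower without overlap (14.3%, against 7.67% of all windows) and 0 higher (against 8.76%), from few windows. Only 2 windows were found at Col10a1, the collagen of growth plate cartilage, and 36 at Col26a1 and Col28a1, with a median of −0.01.

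Other genes of the collagen pathway were read from a list of 44 genes, at their best promoter window. A window was found for 42, as 41 distinct windows since P3h4 and Fkbp10 share one, and not for P4ha3 or Pcolce2. By limma 0 passed the adjusted threshold in either direction, 0 were lower and 6 higher at an unadjusted p under 0.05, and 10 lay higher without overlap and 0 lower. Over all promoter windows 2.60% were lower and 8.16% higher at that unadjusted p, and 4.35% lay lower and 13.1% higher without overlap. The median log2 change was 0.20, and 36 of 42 were positive, where 63.9% of all promoter windows were. The windows of this list are the best of each gene, while that background takes in every window within 1 kb of any start site. Of the 5 genes that cross-link collagen, all were positive and 3 had an unadjusted p under 0.05, where 8.16% of all promoter windows were higher at that threshold. Loxl3 and Loxl4 encode members of the lysyl oxidase family, which oxidize lysines of collagen.

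At Loxl3 the values were 8.03, 7.62 and 9.30 in WT and 9.62, 9.81 and 8.66 in DKO (log2 change 0.36 ± 0.13, unadjusted p = 0.0163, adjusted p = 0.282 by limma), and at Loxl4 they were 7.88, 6.86 and 8.36 in WT and 9.41, 8.93 and 7.78 in DKO (unadjusted p = 0.0239 by limma). Of the 7 processing genes with a window, Adamts3, a protease that removes the amino end of procollagen, had 4.82, 3.75 and 5.31 in WT and 6.43, 5.95 and 5.94 in DKO (log2 change 0.59 ± 0.20, unadjusted p = 0.0138, adjusted p = 0.262 by limma). Pcolce, an enhancer of the protease that removes the other end, had 5.77, 5.22 and 6.27 in WT and 6.62, 6.37 and 8.06 in DKO (unadjusted p = 0.0364 by limma). At Adamts3 and Pcolce all DKO values lay over all WT values before scaling as well. Of the 18 genes for modification, folding and export, only Mia3, which helps load procollagen into transport carriers, had an unadjusted p under 0.05 (0.026 by limma), and 13 were positive. The 7 receptors, among them Ddr2 and Itgb1, and the 5 fibril-associated proteins, such as Dcn and Sparc, were all positive with 0 under that threshold. Lum was listed in 2 libraries and Fmod in 4, so their signs rest in part on filled values. All signs in the pathway list were read after quantile normalization only, and the balance of lower and higher windows depended on the scaling.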

How the data were processed

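ATAC-seq followed the omni protocol on 50000 cells per library with paired reads of 50 bp. Per the labels, the study's methods and the submitters' processing notes, the authors used bcl2fastq 2.17, cutadapt 1.18, Bowtie2 2.3.4.3 and MACS2 (version not given in the sources used here) on mm10, removed duplicates and mitochondrial reads, and called peaks for each library. The lists were limited to 300000 peaks at a p of 0.01 and filtered against a blacklist. The methods instead describe default peak calling settings, so which threshold was used is unsure. The deposited values are the fold enrichment of cut sites at a summit, a ratio over local background, and −log10 p and −log10 q, as MACS2 gave them. Total reads per library were not analysed here, so depth was read from the local background.

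Summits were gathered into windows 250 bp to either side of a centre and kept where at least 2 libraries had a q under 0.01. Where a library lacked a summit, the smallest value in its list stood in. Values were put on the log2 scale, quantile-normalized and fitted with limma 3.58.1 (eBayes with trend, Benjamini-Hochberg over all 179249 windows) in R 4.3.3, two-sided, DKO minus WT, 3 against 3 without a block, and all adjusted and unadjusted p-values come from this fit unless another is named. Annotation and sequence work used Python 3.11.15, pandas 2.3.3 and pysam 0.24.0. On simulated data for this comparison over 179249 windows, 0% of windows with a log2 change of 1 and 46% of those with a change of 2 were called. Promoter sequences are from RefSeq (GRCm38.p6), with 38 entries for 35 collagen genes.

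Named windows were the best promoter window of each fibrillar gene and of the 10 highest non-fibrillar genes, the 5 lower and 5 higher windows with the smallest p among those listed in all 3 libraries of a genotype, up to 5 windows listed in 1 genotype only each way, and the highest other window of each fibrillar gene listed in all 6 libraries. Sequences are those of named fibrillar windows with an unadjusted p under 0.05 and more than 1 kb from a start site of another gene, the leading windows of 1 genotype and the leading window of the Col4a1 and Col4a2 locus, with 2 promoters chosen after their values were seen. Members and lists were chosen with earlier results of these data known. Alternatives were no scaling, median centring, no variance trend, summits in all 6 libraries, −log10 p or pileup as the value, the 100000 best peaks, other flanks and promoter widths, a replicate block and leaving out each library.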

Additional observations from a re-analysis of the deposited data

How the results depend on the processing

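Of 190 counts and medians recomputed under an alternative, 136 stayed within 1.5 times the count or within the spread between replicates. Of 599 values recomputed for the 45 named windows, 520 lay within 1 SE of the main value, 9 came under an unadjusted p of 0.05 and 39 no longer did. The sign changed in 49 of these 599, at 18 of the 45 windows, whose main log2 changes were at most 0.30 in size. No adjusted call arose except without the variance trend (6 lower, 9 higher), all 15 at windows with filled values throughout 1 genotype, which is no test of a difference. Without scaling, 46 windows were lower and 15 higher at an unadjusted p (5.97% and 1.95%, against 9.31% and 2.301% of all windows), 76 and 28 lay lower and higher without overlap, and the medians were −0.021 (fibrillar promoter), −0.033 (fibrillar other), −0.12 (non-fibrillar promoter) and −0.13 (non-fibrillar other). When only windows with summits in all 6 libraries were scaled and fitted, 19 lay lower and 51 higher without overlap (4.19% and 11.3%, against 8.22% and 9.43%). At an unadjusted p 18 were lower (3.97%, against 6.98%) and 30 higher (6.62%, against 6.08%), from fewer windows. With −log10 p the fibrillar promoter median was 0.0094, and with pileup the fibrillar medians were −0.093 (promoter) and 0.011 (other). With the 100000 best peaks, and so fewer windows, 4 were lower and 16 higher at an unadjusted p (1.48% and 5.93%, against 5.56% and 5.75%), 8 and 42 without overlap (2.96% and 15.6%, against 7.28% and 10.5%), medians were 0.28 (fibrillar promoter) and 0.068 (non-fibrillar other), and 1 window was in WT only and 2 in DKO only. Asking that an interval cover at least 0.5 of the window left 3 in DKO only and gave 9 in WT only. For these counts, those with the best peaks and those with a library left out, the share of all windows was not computed. They cannot be read against the series. Log2 changes larger than their SE turned sign at the Col1a2 promoter (−0.0054, pileup), the Col6a2 promoter (−0.017, no scaling), the Col12a1 promoter (−0.13, pileup) and downstream of Col3a1 (−0.066 with −log10 p, −0.15 with pileup). Smaller ones did so at the promoters of Col3a1 (−0.17, pileup), Col1a1 (0.11, 100000 best peaks), Col8a1 (−0.18, pileup) and Col11a2 (−0.18, without WT replicate 1), among others. For the medians and directions the cause was not tested.

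Leaving out each library in turn gave 23 to 29 lower and 32 (without DKO replicate 2) to 53 higher at an unadjusted p (2.98% to 3.76% and 4.15% to 6.87%, against 5.04% to 6.02% and 4.78% to 6.00% of all windows), 55 to 74 lower and 104 to 134 higher without overlap (7.13% to 9.60% and 13.5% to 17.4%, against 11.3% to 13.7% and 12.2% to 14.6%), fibrillar promoter medians of 0.069 to 0.23, non-fibrillar other medians of −0.0064 to 0.041, 9 to 16 windows in WT only and 12 to 19 in DKO only. With the replicate block 30 windows were lower and 33 higher at an unadjusted p (3.89% and 4.28%, against 5.37% and 4.78%) and 0 passed the adjusted threshold. Deviations from the group means were close to uncorrelated between same-numbered libraries (r of 0.0054, −0.0115 and −0.0071). Such correlations cannot show how the libraries were prepared, and the labels name no pairing. The Col4a1 and Col4a2 locus and a flank of 2 kb for counts without overlap were chosen after seeing the data. Peak lists cut at a fixed number limit what can be said of weak sites.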
